A study of Rattus norvegicus with 18 samples.

Results

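The acid-base genes of the intercalated cell were examined in rat kidney. The list held 9 genes: the proton pump subunits Atp6v1b1, Atp6v0d2 and Atp6v1g3, the anion exchangers Slc4a1, Slc4a9 and Slc26a4, the transcription factor gene Foxi1, the ammonia transporter gene Rhcg and the carbonic anhydrase gene Car2. Every probe set that the platform annotation gives to 1 of these genes alone was taken. This found 10 probe sets for 7 of the 9 genes, out of 31042 probe sets on the array after controls were left out, and all 10 passed the filter on dim probe sets. Atp6v1g3, Slc4a1 and Car2 had a pair of probe sets each, told apart below as the brighter (1383893_at, 1387656_at and 1367733_at) and the dimmer (1386166_at, 1369634_at and 1386922_at). Atp6v0d2 and Slc4a9 are named by no probe set in the annotation used and are not analysed here, and no member shared a probe set with another gene.

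Whole-kidney RNA of 18 rats was hybridised to Affymetrix rat genome arrays, 1 array per rat. There were 9 rats of the inbred Dahl salt-sensitive strain (Dahl S, SS/Jr), which develops hypertension and kidney damage, and 9 of the congenic strain S.SHR(2), which carries a segment of chromosome 2 of the spontaneously hypertensive rat (SHR/NHsd) on the Dahl S (SS/Jr) background. All rats were male per the design text, which names ages of 4, 12 and 20 weeks, and no other treatment is labelled. The labels give an age to 2 rats only, Dahl S replicate 2 at 4 weeks and Dahl S replicate 4 at 12 weeks, with a diet of 0.3% salt. In accession order the arrays fell into 3 deposit blocks of 6, each with 3 Dahl S and then 3 S.SHR(2) rats. Replicates 1 to 3 of each strain form the first block, 4 to 6 the second and 7 to 9 the third. A block is a place in the deposit and was not treated as an age, and age, handling and scan cannot be told apart between blocks. In S.SHR(2) the whole segment differs from Dahl S, so its single genes cannot be told apart by these arrays.

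Intercalated cells are scattered among the principal cells of the connecting tubule and collecting duct, and they set the final acidity of the urine. Cytosolic carbonic anhydrase, encoded by Car2, makes protons and bicarbonate from carbon dioxide and water. In type A cells the vacuolar proton pump (V-ATPase) moves the protons into the urine while the exchanger AE1, encoded by Slc4a1, returns bicarbonate to the blood. In type B cells pendrin, encoded by Slc26a4, secretes bicarbonate in exchange for chloride. Rhcg lets ammonia pass into the urine, where it buffers acid, and the forkhead factor Foxi1 is required for intercalated cells to form and to express pump and exchanger genes.

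Because Foxi1 is a forkhead factor, the promoters of the members were searched for the forkhead core TGTTTAC on both strands (GTAAACA on the other). The RefSeq promoter table of assembly GRCr8 held 6 of the 9 genes. The 250 bases before the start of transcription contained the core in 1 of these 6, Atp6v1b1, with its first base 93 bases before the start, and in 3.21% of the 33469 promoters of the table. That window is shown first, with the core in capitals, because it is the only one of the 6 that held it. The window of Rhcg, whose fall between blocks is described below, had no match and is shown for contrast. The first lies at chr4:117781194-117781443 on the plus strand and the second at chr1:142965163-142965412 on the minus strand, both 5′ to 3′. A match is a description of the letters and not a binding site.
Atp6v1b1: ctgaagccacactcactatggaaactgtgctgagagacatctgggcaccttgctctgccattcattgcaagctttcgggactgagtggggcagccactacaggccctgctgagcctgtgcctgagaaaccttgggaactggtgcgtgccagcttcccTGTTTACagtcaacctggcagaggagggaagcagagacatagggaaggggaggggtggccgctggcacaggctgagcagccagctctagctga
Rhcg: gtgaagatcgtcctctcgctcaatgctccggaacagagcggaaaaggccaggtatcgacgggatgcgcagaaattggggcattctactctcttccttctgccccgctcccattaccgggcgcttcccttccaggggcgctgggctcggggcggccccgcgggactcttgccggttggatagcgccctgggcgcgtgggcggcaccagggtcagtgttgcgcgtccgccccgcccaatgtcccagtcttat

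The values are the intensities as deposited, on a linear scale with a common trimmed mean of 150 units. Pairs of arrays correlated at 0.909 to 0.988 (Pearson's r over the 18625 probe sets tested, on the log2 scale after quantile normalisation). The GAPDH 3′/5′ ratio, a measure of RNA integrity and labelling, ran from 1.19 to 2.51 in the first block, from 1.28 to 2.04 in the second and varied least in the third, with a median of 1.53 and a highest value of 1.60. S.SHR(2) replicate 1 and Dahl S replicate 5 had the highest ratios, 2.51 and 2.04. The highest intensity on an array was 11117 to 14648 in the first block, 11270 to 13704 in the second and 7508 to 9499 in the third, so the third block stood apart at the bright end. The kidney markers Slc34a1, Umod and Aqp2 were bright on every array, at 4672 or more, 5258 or more and 1662 or more. Whole kidney holds few intercalated cells, and fewer such cells and less RNA per cell cannot be told apart. Rats are taken as separate samples, and nothing in the labels says more of how they were raised. Precision is set by the number of rats, 3 in each strain and block.

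Intensities of different probe sets depend on their probes and do not rank the genes. Over all 18 rats the highest median was that of the brighter Car2 probe set, 2611 units, and the lowest that of Atp6v1b1, 85.2 units. Slc26a4, Foxi1 and Rhcg had medians of 273, 283 and 384 units. The coefficient of variation over the 18 rats was smallest for the brighter Car2 probe set, at 6.29%, and largest for the brighter Slc4a1 probe set, at 26.3%.

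**Figure D1:**
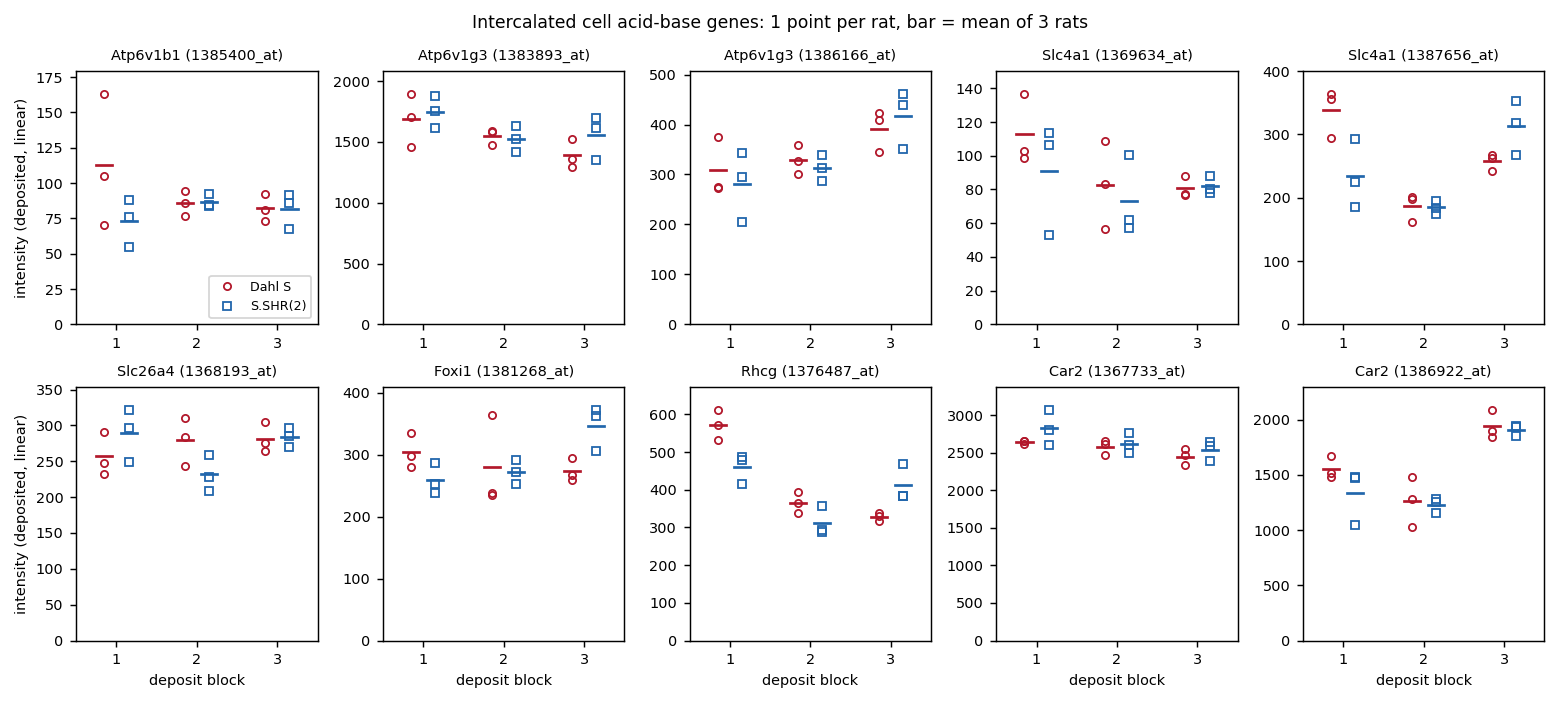
Deposited intensity (linear scale, from 0) of the 10 probe sets by deposit block, with 1 point per rat, circles for Dahl S and squares for S.SHR(2), and a bar at the mean of 3 rats. Rhcg lies at 414 to 612 in the first block and at 287 to 470 in the other two, and the dimmer Car2 probe set lies at 1839 or more in all rats of the third block and at 1667 or less in all others.

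Averaged over the blocks, no member probe set was called between the strains. Differences of opposite sign in single blocks cancel in this average, and some of them are given below. Over all 18625 probe sets tested, 110 (0.591%) were called between the strains at an adjusted p under 0.05 (limma, Benjamini-Hochberg), and 0 of the 10 member probe sets were among them. At an unadjusted p under 0.05 the count was also 0 of 10, against 9.71% of all probe sets. Changes of S.SHR(2) against Dahl S ran from -0.13 to 0.04 on the log2 scale, with a median of -0.06 against 0.00 for all probe sets tested. The smallest adjusted p was 0.58.

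The intervals bound what these rats could show. For Car2, which lies on chromosome 2, the chromosome of the congenic segment, the difference was -0.13 ± 0.07 (SE; 95% interval -0.28 to 0.02) with the dimmer Car2 probe set and 0.02 ± 0.05 (-0.09 to 0.12) with the brighter Car2 probe set. The former was -0.07 without S.SHR(2) replicate 1, -0.07 with the beta-actin 3′/5′ ratio in the model and -0.05 with median-centred arrays. The widest interval was that of the dimmer Slc4a1 probe set, from -0.38 to 0.15. The Atp6v1b1 difference was -0.12 ± 0.12 (-0.36 to 0.12), with a mean of 93.6 ± 28.4 units (SD, n = 9) in Dahl S and 80.5 ± 12.3 in S.SHR(2). It was -0.03 without Dahl S replicate 1, whose 163 units were the highest reading, -0.21 without Dahl S replicate 2 and -0.08 when S.SHR(2) replicate 1 was left out. Array weights gave -0.07 and the beta-actin ratio in the model -0.06. Slc26a4 had means of 273 ± 27.5 and 268 ± 36.0 units. A p that misses the threshold does not show that the strains were equal.

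**Figure D2:**
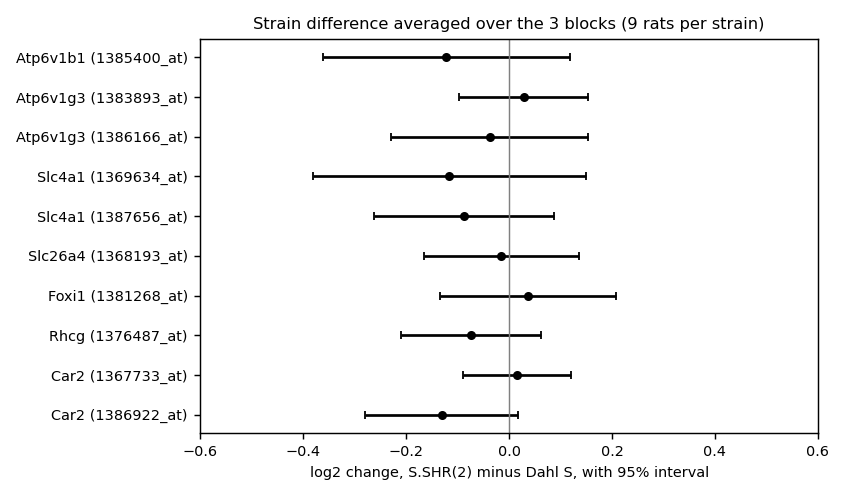
Log2 change of S.SHR(2) against Dahl S for the 10 probe sets, averaged over the 3 blocks, with 9 rats per strain; the points are model estimates and the bars 95% intervals. Every interval includes 0, and the estimates lie between -0.13 and 0.04.

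Averaged over the strains, some member probe sets passed the test in each of the 3 comparisons of deposit blocks. Many other probe sets did too. In the second block against the first, 19.4% of all probe sets tested were called, 10.1% higher and 9.34% lower, and 2 of the 10 member probe sets were, Rhcg and the brighter Slc4a1 probe set, both lower. In the third against the second, 35.0% of all were called, 17.9% higher and 17.1% lower, and 2 of 10, the brighter Slc4a1 and the dimmer Car2 probe set, both higher. In the third against the first, 41.3% of all were called, 20.8% higher and 20.6% lower, and 4 of 10, with 2 in each direction. Rhcg and the brighter Atp6v1g3 probe set were lower, and the dimmer Atp6v1g3 and dimmer Car2 probe sets were higher. The members' shares were near or under the shares of all probe sets. Atp6v1b1, Slc26a4, Foxi1, the dimmer Slc4a1 probe set and the brighter Car2 probe set passed in none of these 3 comparisons, with changes between -0.31 and 0.14.

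Within Dahl S, 2, 1 and 3 of the 10 member probe sets were called from the first to the second block, from the second to the third and from the first to the third, where 8.23%, 20.2% and 23.8% of all probe sets were. Within S.SHR(2) the counts were 1, 3 and 4 of 10, where 9.03%, 18.8% and 30.6% of all were. These 14 calls, of 60 tests, are given with their genes below.

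**Figure D3:**
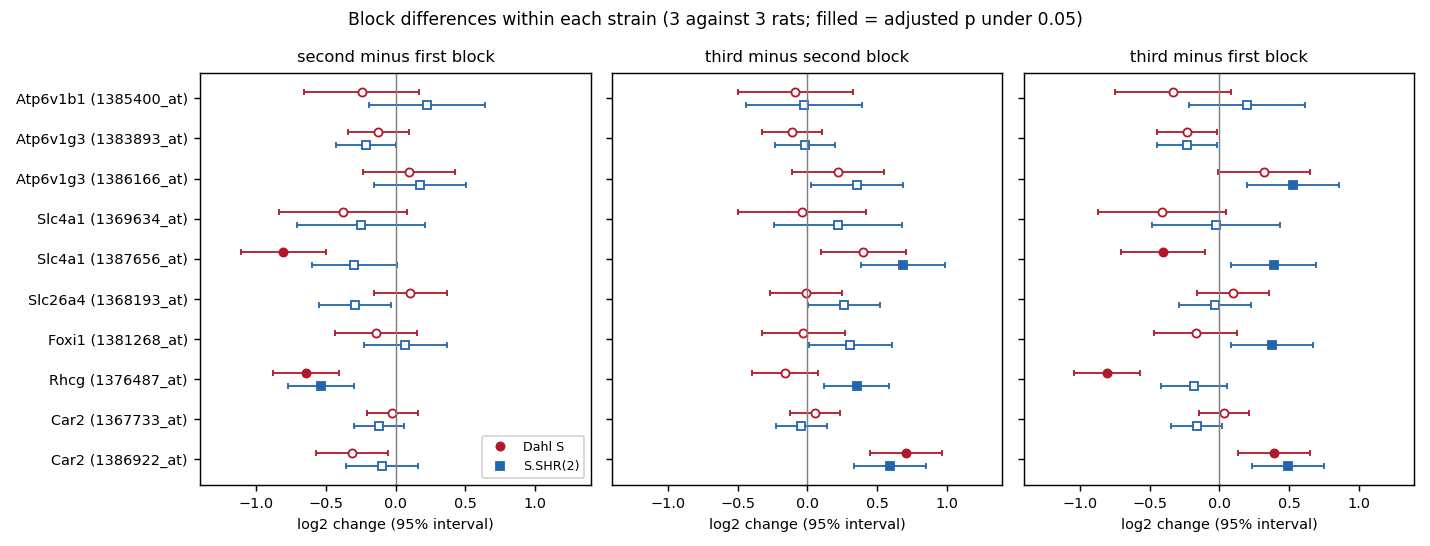
Log2 change between deposit blocks within each strain (circles Dahl S, squares S.SHR(2), 3 against 3 rats), with 95% intervals; filled symbols have an adjusted p under 0.05. Rhcg fell from the first to the second block in both strains, by 0.64 and 0.53, and the dimmer Car2 probe set rose from the second to the third in both, by 0.70 and 0.59.

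Atp6v1b1 encodes the B subunit of the pump's catalytic head that is typical of intercalated cells. In Dahl S it read 163, 70.0 and 105 units in the first block, 86.1, 76.5 and 94.6 in the second and 81.2, 73.2 and 92.2 in the third. In S.SHR(2) it read 55.1, 75.7 and 87.9, then 92.5, 84.3 and 84.0, then 67.7, 91.7 and 86.0 units. The spread was widest in the first block, where Dahl S replicate 1 was highest of all rats, and all groups overlapped. It passed the test in no comparison, and its block changes were -0.01 ± 0.14 from the first to the second block and -0.06 ± 0.14 from the first to the third.

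Atp6v1g3 encodes a G subunit of the pump's peripheral stalk that is found mainly in kidney, and its probe sets moved in opposite directions. With the brighter Atp6v1g3 probe set the Dahl S rats read 1460, 1704 and 1897 units in the first block, 1584, 1472 and 1586 in the second and 1293, 1526 and 1356 in the third. The S.SHR(2) rats read 1878, 1618 and 1753, then 1525, 1415 and 1629, then 1613, 1698 and 1354 units. The third block overlapped the first in both strains, and the change from the first to the third, -0.23 ± 0.07, passed the test (adjusted p = 0.015). It missed it at -0.15 with median-centred arrays (adjusted p = 0.17) and at -0.16 with the beta-actin 3′/5′ ratio in the model (adjusted p = 0.098).

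The dimmer Atp6v1g3 probe set was higher in the third block than in the first. Dahl S read 276, 274 and 374 units in the first block, 327, 301 and 359 in the second and 408, 423 and 345 in the third. S.SHR(2) read 205, 296 and 342, then 340, 286 and 312, then 439, 462 and 352 units. All 3 S.SHR(2) rats of the third block lay above those of the first and second, as 41.7% and 38.8% of all probe sets tested separated these S.SHR(2) blocks, whereas the Dahl S ranges overlapped. The change from the first to the third block was 0.42 ± 0.11 (adjusted p = 0.0045) averaged over strains and 0.53 ± 0.16 (adjusted p = 0.015) in S.SHR(2). The S.SHR(2) change was lost without S.SHR(2) replicate 1 (0.33, adjusted p = 0.11), replicate 7 (0.49, adjusted p = 0.055) or replicate 8 (0.46, adjusted p = 0.065), and with the beta-actin ratio in the model (0.38, adjusted p = 0.14). The change from the second to the third block averaged over strains, 0.29 ± 0.11, missed the threshold (adjusted p = 0.0502) and passed it in 7 of 18 fits without 1 rat and in 6 other settings. Since the pair of probe sets disagree, no direction is given for Atp6v1g3.

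Slc4a1 encodes AE1, the exchanger that returns bicarbonate to the blood in type A cells and that is also the main membrane protein of red cells. With the brighter Slc4a1 probe set, Dahl S read 355, 364 and 294 units in the first block, 198, 162 and 202 in the second and 264, 267 and 242 in the third. S.SHR(2) read 185, 293 and 224, then 175, 185 and 196, then 267, 353 and 318 units. The second block had the lowest mean in both strains, and all 6 of its rats lay below all 6 of the third, as was so for 19.7% of all probe sets tested. Averaged over strains the brighter Slc4a1 probe set fell by 0.55 ± 0.10 from the first to the second block (adjusted p = 6.8e-04) and rose by 0.54 ± 0.10 from the second to the third (adjusted p = 3.5e-04). With the beta-actin ratio in the model the rise was 0.34 (adjusted p = 0.028). Between the first block and the third the change was -0.01 ± 0.10.

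Within strains, the brighter Slc4a1 probe set fell by 0.81 ± 0.15 from the first to the second block in Dahl S (adjusted p = 0.0012) and rose by 0.69 ± 0.15 from the second to the third in S.SHR(2) (adjusted p = 0.0023). The same changes in the other strain missed the threshold, -0.30 ± 0.15 from the first to the second block in S.SHR(2) (adjusted p = 0.23) and 0.40 ± 0.15 from the second to the third in Dahl S (adjusted p = 0.057). Against the first block, the third was called lower in Dahl S (-0.41 ± 0.15, adjusted p = 0.049) and higher in S.SHR(2) (0.39 ± 0.15, adjusted p = 0.047). Both of these calls sit at the threshold. The first was lost in 12 of 18 fits that left out 1 rat, all but those without Dahl S replicate 3 or 5 or S.SHR(2) replicate 1, 2, 7 or 8, with adjusted p up to 0.17. The second was lost in 13 of 18, all but those without Dahl S replicate 1, 3 or 5 or S.SHR(2) replicate 2 or 7. Without S.SHR(2) replicate 1, the array of highest GAPDH ratio, it was 0.25 (adjusted p = 0.24). With array weights it was 0.11 (adjusted p = 0.49) and with the beta-actin ratio in the model 0.14 (adjusted p = 0.53).

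The dimmer Slc4a1 probe set was dim, at 53.2 to 137 units, and passed the test in no block comparison. Its change from the first to the second block was -0.31 ± 0.16 (adjusted p = 0.17). The third block against the first gave -0.22 ± 0.16 (adjusted p = 0.27), and this was called lower without S.SHR(2) replicate 1 (-0.36, adjusted p = 0.047), with array weights (-0.37, adjusted p = 0.025), on leaving out both arrays whose GAPDH ratio exceeded 2 (-0.36, adjusted p = 0.027) and with the beta-actin ratio in the model (-0.44, adjusted p = 0.036). The change from the first to the second block was called without S.SHR(2) replicate 1 (-0.45, adjusted p = 0.027) and with array weights (-0.39, adjusted p = 0.041).

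Because red-cell precursors also express Slc4a1, erythroid markers were set beside it. Of 13 such genes, 7 had a probe set and 2 passed the filter, Hbb and Alas2, the beta globin gene and the heme synthesis enzyme of red-cell precursors. Their summed intensity ran from 1974 to 10069 units in the first block, from 1867 to 5317 in the second and from 2116 to 3615 in the third. Both fell from the first to the second block, Alas2 by 1.01 ± 0.31 (adjusted p = 0.027) and Hbb by 0.79 ± 0.25 (adjusted p = 0.033). These calls were lost in 4 and 9 of the 18 fits without 1 rat, down to -0.68 for Alas2 and -0.56 for Hbb, each without S.SHR(2) replicate 2. Alas2 was also called 1.75 lower in the third block than in the first, with 0 calls lost on leaving out 1 rat. Hbb was not called there. Averaged over strains, neither passed the test from the second to the third block. Within Dahl S 1 of the 2 was called lower between these blocks, and within S.SHR(2) 0 were. Mean Hbb went from 3692 to 2442 units in Dahl S and from 1865 to 3134 in S.SHR(2). Mean Alas2 went from 239 to 84.5 and from 124 to 112 units. The other 5, Car1, Klf1, Epb42, Rhag and Ahsp, were dim, with medians of 2.20 to 7.55 units. The part of red cells in the Slc4a1 values was not tested.

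Slc26a4, pendrin of type B cells, was the steadiest of the exchangers. Dahl S read 290, 248 and 233 units in the first block, 244, 311 and 284 in the second and 304, 264 and 275 in the third. S.SHR(2) read 297, 248 and 322, then 228, 209 and 259, then 270, 296 and 285 units. The S.SHR(2) rats of the second block lay below those of the third, blocks that 38.8% of all probe sets tested separated in this strain. All other blocks overlapped within each strain. No comparison passed the test, and the block changes averaged over strains ran from -0.09 ± 0.09 to 0.13 ± 0.09. That average hides opposite signs from the first to the second block, 0.11 ± 0.12 in Dahl S and -0.29 ± 0.12 in S.SHR(2). The interaction for this step was -0.40 ± 0.18 (unadjusted p = 0.035, adjusted p = 0.84). From the second to the third block the S.SHR(2) change was 0.26 ± 0.12 (adjusted p = 0.15).

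Foxi1 read 279, 298 and 335 units in the first block of Dahl S, 235, 239 and 365 in the second and 260, 267 and 295 in the third. In S.SHR(2) it read 253, 286 and 238, then 272, 291 and 253, then 363, 372 and 306 units. All S.SHR(2) rats of the third block lay above all other S.SHR(2) rats and above the Dahl S rats of that block. Of all probe sets tested, 41.7% separated the first from the third S.SHR(2) block, 38.8% the second from the third, and 20.4% the strains within the third. Foxi1 rose by 0.38 ± 0.14 from the first to the third block in S.SHR(2), a call at the threshold (adjusted p = 0.049), and its Dahl S change was -0.17 ± 0.14. The S.SHR(2) call was lost in 11 of 18 fits without 1 rat, all but those without Dahl S replicate 1, 3, 4, 5 or 6 or S.SHR(2) replicate 2 or 9, at 0.32 to 0.46 over all 18. Averaged over strains no block change of Foxi1 passed the test with all rats, and the change from the second to the third block was called without Dahl S replicate 6 (0.24, adjusted p = 0.040).

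Rhcg, the ammonia channel of the collecting duct, had its highest mean in the first block in both strains. In Dahl S it read 573, 532 and 612 units in the first block, 365, 339 and 393 in the second and 330, 340 and 317 in the third. In S.SHR(2) it read 480, 486 and 414, then 358, 287 and 293, then 384, 470 and 385 units. All 6 rats of the first block lay above all 6 of the second, as was so for 8.52% of all probe sets tested. Averaged over strains Rhcg fell by 0.59 ± 0.08 from the first to the second block (adjusted p = 2.1e-05) and by 0.49 ± 0.08 from the first to the third (adjusted p = 4.5e-05).

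Within strains, Rhcg fell from the first to the second block by 0.64 ± 0.11 in Dahl S (adjusted p = 9.1e-04) and by 0.53 ± 0.11 in S.SHR(2) (adjusted p = 0.0046). From the first to the third block the Dahl S change was -0.81 ± 0.11 (adjusted p = 2.0e-05). The S.SHR(2) change was -0.18 ± 0.11 and missed the threshold (adjusted p = 0.24), with overlapping ranges. From the second to the third block Rhcg rose by 0.35 ± 0.11 in S.SHR(2) (adjusted p = 0.033), and the Dahl S change was -0.16 ± 0.11 (adjusted p = 0.35). The interaction of strain and block for this step, 0.51 ± 0.16, did not pass the test (unadjusted p = 0.0042, adjusted p = 0.9985). The S.SHR(2) rise from the second to the third block was lost without S.SHR(2) replicate 5 (0.29, adjusted p = 0.14), replicate 6 (0.31, adjusted p = 0.11) or replicate 8 (0.26, adjusted p = 0.16) and with the beta-actin ratio in the model (0.35, adjusted p = 0.069).

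Car2, the carbonic anhydrase of the cytosol, is found in intercalated cells and, at lower levels, in other tubule cells. With the dimmer Car2 probe set, Dahl S read 1667, 1485 and 1514 units in the first block, 1478, 1029.8 and 1281 in the second and 1839, 2088 and 1901 in the third. S.SHR(2) read 1045, 1472 and 1481, then 1250, 1159 and 1277, then 1946, 1931 and 1852 units. All 6 rats of the third block lay above the 12 others. Against the first block 18.1% of all probe sets tested separated the rats in this way and against the second 19.7%. The dimmer Car2 probe set rose by 0.65 ± 0.09 from the second to the third block (adjusted p = 8.5e-06) and was 0.44 ± 0.09 above the first in the third (adjusted p = 3.9e-04). With the beta-actin ratio in the model these were 0.42 (adjusted p = 2.1e-04) and 0.27 (adjusted p = 0.0031). The rise from the second to the third block was 0.70 ± 0.12 in Dahl S (adjusted p = 3.5e-04) and 0.59 ± 0.12 in S.SHR(2) (adjusted p = 0.0021), the latter 0.36 (adjusted p = 0.011) with that ratio in the model.

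The dimmer Car2 probe set rose from the first to the third block by 0.39 ± 0.12 in Dahl S (adjusted p = 0.027) and by 0.50 ± 0.12 in S.SHR(2) (adjusted p = 0.0046). The Dahl S call was lost without Dahl S replicate 2, 3, 7, 8 or 9, at 0.36 to 0.41 with adjusted p of 0.056 to 0.088, and in 3 other settings. With the beta-actin ratio in the model the S.SHR(2) change was 0.22 (adjusted p = 0.11), and without S.SHR(2) replicate 1 it was 0.32 (adjusted p = 0.034). The second block against the first gave -0.21 ± 0.09, which missed the threshold (adjusted p = 0.11) and was called without S.SHR(2) replicate 1 (-0.29, adjusted p = 0.0070).

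The brighter Car2 probe set read 2617 to 2652 units in Dahl S and 2607 to 3070 in S.SHR(2) in the first block, and 2331 to 2545 and 2392 to 2637 in the third. The Dahl S ranges of these blocks were separate, as they were for 38.9% of all probe sets tested. After quantile normalisation the Dahl S change between them was 0.03 ± 0.09. The brighter Car2 probe set passed the test in no comparison, with block changes averaged over strains between -0.07 ± 0.06 and 0.01 ± 0.06. With values as deposited, its averaged change from the first to the third block was -0.13 ± 0.06 (adjusted p = 0.084). The array with the highest GAPDH 3′/5′ ratio, S.SHR(2) replicate 1, had its highest reading, 3070 units, and the second lowest reading of the dimmer Car2 probe set, 1045 units. Dahl S replicate 5, with the next highest ratio, had the lowest reading of that probe set, 1029.8 units. The ratio medians were 1.41, 1.36 and 1.53 in the 3 blocks for GAPDH and 3.48, 3.69 and 2.63 for beta-actin. In the third block, where the dimmer Car2 probe set was highest, the GAPDH median was thus the highest and the beta-actin median the lowest. The part of RNA integrity in the Car2 values was not tested beyond the model with the beta-actin ratio and the fits without the arrays of high ratio. Because the beta-actin ratio differed between blocks, that model cannot fully tell it apart from the block. Since the pair of probe sets differ, the rise is given for the dimmer Car2 probe set and not for the gene. With the mean of each strain and block taken off, the Car2 pair had a Pearson's r of -0.73 over the 18 arrays. The brighter Slc4a1 probe set then had r = -0.81 with the brighter Car2 probe set and 0.66 with the dimmer. The cause of these correlations was not tested.

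**Figure D4:**
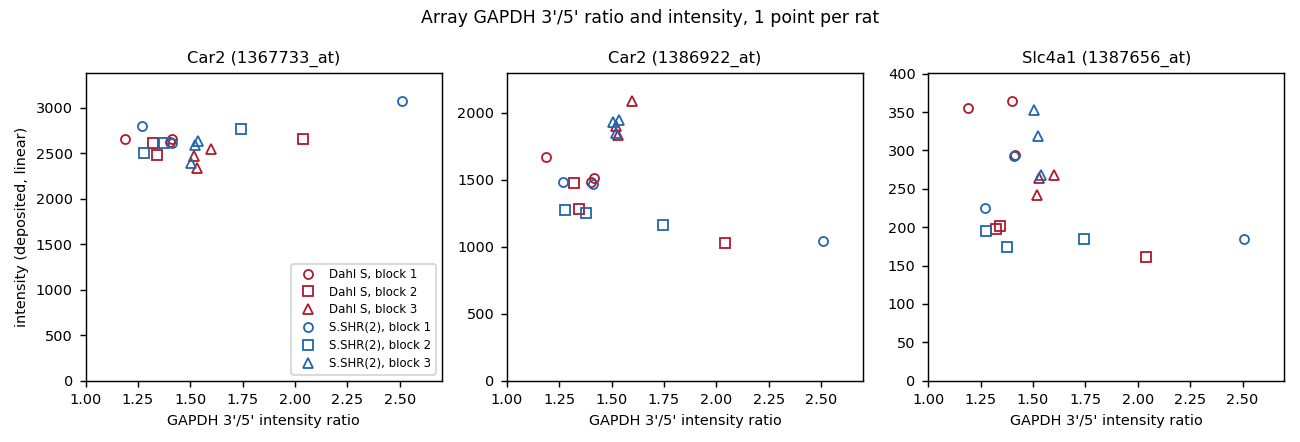
Deposited intensity (linear scale, from 0) of both Car2 probe sets and of the brighter Slc4a1 probe set against the GAPDH 3′/5′ intensity ratio of the array, with 1 point per rat, colour for strain and shape for deposit block. The array at a ratio of 2.51 is highest for the brighter Car2 probe set (3070) and among the lowest for the dimmer Car2 probe set (1045) and the brighter Slc4a1 probe set (185).

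Whether the strains differed in how the members changed between blocks was tested with the interaction of strain and block. No member passed, against 0%, 0.00537% and 0.0107% of all probe sets for the changes from the first to the second block, from the second to the third and from the first to the third. Of the 10 member probe sets, 2, 1 and 3 had an unadjusted p under 0.05, against 5.59%, 4.34% and 9.26% of all probe sets. For the third block against the first, the S.SHR(2) change of Rhcg exceeded that of Dahl S by 0.62 ± 0.16 (unadjusted p = 8.4e-04, adjusted p = 0.32). The corresponding difference was 0.80 ± 0.21 for the brighter Slc4a1 probe set (unadjusted p = 9.3e-04, adjusted p = 0.33) and 0.55 ± 0.20 for Foxi1 (unadjusted p = 0.013, adjusted p = 0.46).

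None of the members' strain differences inside a single block passed the test. The share of all probe sets called was 0.161% in the first block, 0.123% in the second and 0.338% in the third. In the first block the difference of S.SHR(2) from Dahl S was -0.32 ± 0.11 for Rhcg (95% interval -0.55 to -0.08, adjusted p = 0.35) and -0.52 ± 0.15 for the brighter Slc4a1 probe set (-0.83 to -0.22, adjusted p = 0.23). For Atp6v1b1 it was -0.45 ± 0.20 (-0.87 to -0.04, adjusted p = 0.45). In the third block it was 0.31 ± 0.11 for Rhcg (0.07 to 0.54, adjusted p = 0.33) and 0.33 ± 0.14 for Foxi1 (0.04 to 0.63, adjusted p = 0.41). There it was 0.27 ± 0.15 for the brighter Slc4a1 probe set (-0.03 to 0.58, adjusted p = 0.54) and 0.08 ± 0.20 for Atp6v1b1. The Slc26a4 difference was 0.16 ± 0.12 in the first block (-0.10 to 0.42) and -0.24 ± 0.12 in the second (-0.50 to 0.02). With unadjusted p under 0.05 there were 3, 0 and 2 of the 10 member probe sets in the 3 blocks, against 10.4%, 3.16% and 10.4% of all probe sets. The strains' ranges were separate for the brighter Slc4a1 probe set, Rhcg and the dimmer Car2 probe set in the first block, where 10.6% of all probe sets had separate ranges. In the third block they were separate for Foxi1 and Rhcg, where 20.4% had.

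The other genes of the pump and of the cell were counted from lists by the brightest probe set of each gene. Their block counts stand beside the shares of all probe sets called in either direction, 19.4% in the second block against the first, 35.0% in the third against the second and 41.3% in the third against the first. Of 18 other V-ATPase subunits, which all passed the filter, 0 were called between strains, with a median change of 0.00. In the second block against the first 2 were lower and 0 higher, from the second to the third 6 were higher and 3 lower, and from the first to the third 3 were higher and 3 lower. Atp6v0a1, an a subunit of the membrane sector, was 0.44 ± 0.11 higher in the third block than in the first (adjusted p = 0.0031). Atp6v1d and Atp6v0a2 were lower, by 0.36 ± 0.08 (adjusted p = 0.0010) and 0.41 ± 0.10 (adjusted p = 0.0031). Atp6v1e1 fell by 0.28 ± 0.07 from the first to the second block (adjusted p = 0.0096) and rose by 0.46 ± 0.07 from the second to the third (adjusted p = 5.1e-05). The summed level of the 18 subunits had medians of 24669, 23207 and 23859 units in the 3 blocks. Most of these subunits serve all cells and not intercalated cells alone.

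Of 24 other intercalated cell genes, 15 had a probe set and 8 passed the filter. From the first block 4 of the 8 were lower and 0 higher in the second, and 3 lower and 0 higher in the third, where the median was -0.32 against 0.01 for all probe sets. From the second to the third block 3 were lower and 0 higher. The count of 4 was 2 without Dahl S replicate 2, 4 or 6 or S.SHR(2) replicate 5. Bsnd, the barttin subunit of chloride channels in the thick limb and intercalated cells, averaged 510 ± 9.01 units (SD, n = 3) in Dahl S and 432 ± 24.5 in S.SHR(2) in the first block. In the third it averaged 211 ± 12.1 and 285 ± 47.2, a fall of 0.93 ± 0.09 (adjusted p = 4.7e-08). Tfcp2l1, a transcription factor of collecting duct cells, was 0.68 ± 0.10 lower in the third block than in the first (adjusted p = 1.4e-05), and Adgrf5, an adhesion receptor, 0.51 ± 0.10 lower (adjusted p = 3.0e-04).

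Between strains 1 of the 8 was called, P2ry14, a receptor for UDP-sugars. It lies on chromosome 2, like Car2. P2ry14 read 134 to 206 units in the 9 Dahl S rats (median 162) and 90.2 to 172 in the 9 S.SHR(2) rats (median 100.1), and the ranges overlapped. The difference was -0.50 ± 0.09 (adjusted p = 0.010), and with strain alone in the model it missed the threshold (adjusted p = 0.094).

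Bicarbonate and ammonia genes listed for other tubule cells behaved apart from one another. The listing does not say that a gene is absent from intercalated cells. Of 12 tested, 0 were called between strains. In the second block against the first 2 were higher and 1 lower, in the third against the second 1 was higher and 4 lower, and in the third against the first 0 were higher and 2 lower. Slc25a10, a mitochondrial dicarboxylate carrier, was lower by 1.08 ± 0.08 (adjusted p = 1.9e-09), and Slc38a3, the proximal glutamine transporter that feeds ammonia production, by 0.53 ± 0.11 (adjusted p = 4.7e-04). Pck1, an enzyme of glucose formation that rises in acidosis, was 0.28 ± 0.07 higher in the second block than in the first (adjusted p = 0.0093). It was called 0.25 lower in the third block than in the second, a call lost in 1 alternative. Cftr, a chloride and bicarbonate channel of epithelia, was 1.12 ± 0.15 higher in the second block than in the first (adjusted p = 1.4e-05). It was 0.93 ± 0.15 lower in the third than in the second (adjusted p = 5.0e-05). With a pseudocount of 64 these changes were 0.67 and -0.58. Cftr was dim outside the second block, with means of 38.2, 103 and 47.6 units in the 3 blocks of Dahl S. In S.SHR(2) they were 33.4, 83.8 and 31.8 units.

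Markers of neighbouring cells moved between the same blocks. Principal cells share the collecting duct with intercalated cells, and of their 11 markers 7 were lower and 0 higher in the second block than in the first, where Rhcg fell. From the second to the third block 5 were higher and 0 lower, and from the first to the third 2 were higher and 6 lower. From the first to the second block Aqp2, the water channel regulated by vasopressin, was lower by 0.50 ± 0.11 (adjusted p = 0.0018), Aqp3 by 0.50 ± 0.08 (adjusted p = 8.3e-05) and Hsd11b2, which protects the mineralocorticoid receptor from glucocorticoid, by 0.54 ± 0.08 (adjusted p = 8.3e-05). The summed level of the 11 was 6796 to 7862 units in the first block, 4435 to 5905 in the second and 4618 to 6190 in the third. None of the 11 was at 0. The part of collecting duct content in the Rhcg values was not tested.

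Of the 10 proximal tubule markers 2 were higher and 0 lower in the second block than in the first, 0 higher and 2 lower in the third than in the second, and 0 higher and 3 lower in the third than in the first. Of 7 markers of the thick limb and distal tubule 1 was higher and 2 lower in the second block than in the first, 3 higher and 1 lower in the third than in the second, and 4 higher and 1 lower in the third block than in the first, with Slc12a3, the thiazide-sensitive cotransporter, up by 0.77 ± 0.09 (adjusted p = 1.5e-06) and the calcium-binding Calb1 down by 1.38 ± 0.07 (adjusted p = 2.9e-12). Macrophage and osteoclast-type cells also carry proton pumps, and of their 9 markers 4 were higher in the second block than in the first, 3 in the third than in the second and 7 in the third than in the first, with 0 lower in each. The summed level of the 9 was 1146 to 1615 units in the first block, 1383 to 1649 in the second and 1644 to 2208 in the third. Cd68, a lysosomal protein, was higher in the third than in the first by 1.27 ± 0.18 (adjusted p = 1.1e-05). Of 9 proliferation markers 3 were lower in the second block than in the first, 1 in the third than in the second and 4 in the third than in the first, with 0 higher in each. Mki67 was lower in the third than in the first by 1.09 ± 0.17 (adjusted p = 3.4e-05), and by 0.62 with a pseudocount of 64. It was dim, with means of 78.4 units in Dahl S and 77.3 in S.SHR(2) in the first block and 32.2 and 18.9 in the third. Between strains 0 markers of the principal cell, proximal tubule, thick limb, macrophage and proliferation lists were called. Calb1 was called lower in S.SHR(2) with array weights (-0.26, adjusted p = 0.0039) and on leaving out the same pair of arrays of high GAPDH ratio (-0.27, adjusted p = 0.020), and the leukocyte gene Ptprc without Dahl S replicate 1 (-0.43, adjusted p = 0.041). The part of other cells in the members' block changes was not tested.

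**Figure D5:**
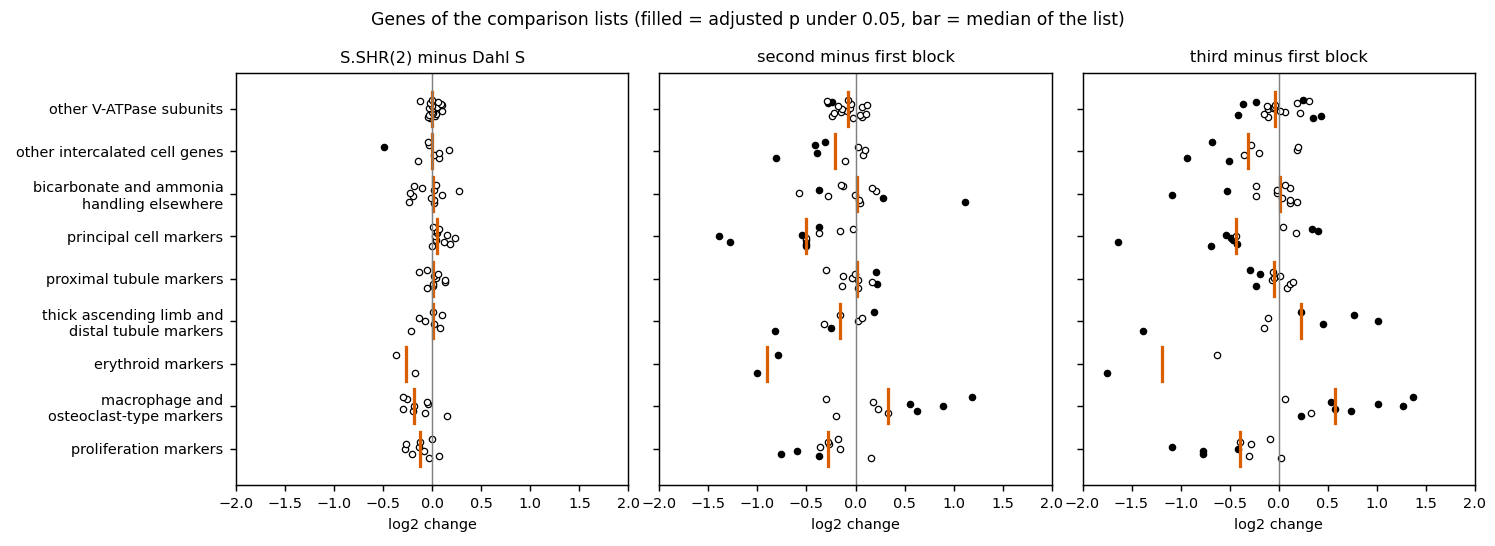
Log2 change of each tested gene of the comparison lists (1 point per gene, brightest probe set) for S.SHR(2) against Dahl S and for the second and the third deposit block against the first; filled points have an adjusted p under 0.05 and bars mark list medians. Filled points are 1 between strains, P2ry14 at -0.50, and many between blocks, where principal cell markers centre at -0.50 in the second block and macrophage markers at 0.58 in the third.

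The genes most like 3 of the members were found by Pearson's r over the 18 arrays among 10476 other genes. The arrays share strain and block, so r describes these arrays only. For Atp6v1b1 the closest were Fkbp4 (r = 0.81), Camk2g (0.77), Ociad1 (0.77), Mgat1 (0.77) and Stip1 (0.75). For the brighter Slc4a1 probe set they were Pmm1, Ly6e and Tmem213 (each 0.90), Mrpl34 (0.89) and Cox14 (0.88). For Slc26a4 they were Zfp658 (0.74), Map1a (0.73), Tgif2 (0.72), Txnrd1 (0.72) and Ccar2 (0.70).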

How the data were processed

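The authors deposited linear intensities, 1 for each probe set on each array. Their trimmed mean, 2% off each end, was 150.046 to 150.054 on every array. The software for this was not given in the sources used here. Without scanner files, background correction and a slide or scan block were not run. After 57 control probe sets were left out, values were transformed as log2(intensity + 16) and quantile normalised. The 40% dimmest by mean were left out and 18625 were tested. Changes are on that scale, which understates those of dim genes.

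A mean per strain and deposit block (6 cells of 3 rats, 12 residual degrees of freedom) was fitted with limma 3.58.1 in R 4.3.3, with an intensity trend. Tests are two-sided. A probe set was called at an adjusted p under 0.05 (Benjamini-Hochberg over all those tested). Log2 errors are standard errors. The fit was tested on simulated data. Figures used matplotlib 3.10.9.

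Of the probe sets 20826 named 1 gene, 436 several and 9780 none; 20758 of the first matched the GRCr8 table. Named list genes are up to 4 per list with the smallest p. The members and lists were chosen with earlier results of these data known. Alternatives were other pseudocounts, filters, scalings, weights, designs, leaving out single rats, and a minimum of 1.5-fold. After seeing the data, fits without the 2 arrays of highest GAPDH ratio, and with the log2 beta-actin ratio in the model, were added.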

Additional observations from a re-analysis of the deposited data

Results flagged for a closer look

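Atp6v1b1 in Dahl S replicate 1 read 163.3 units. The nearest of the other 8 Dahl S rats read 105, and the gap was 0.625 of the whole range of the 9, above the limit of 0.493 for 9 samples. It was the 1 such value among 20 groups of 9 rats, and chance gives about 1 in 20.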

How the results depend on the processing

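Over all alternatives the count of member probe sets called was 0 for the strain difference, 0 inside single blocks and 0 for the interaction of strain and block. With a minimum change of 1.5-fold the count fell from 8 to 2 for the block differences averaged over strains and from 14 to 6 within strains, and with the beta-actin ratio in the model (the covariate) the latter was 9, whereas array weights raised it to 21. Leaving out each rat in turn gave 8 to 12 and 10 to 15. The averaged block calls over all 18625 probe sets moved the same way. For the second block against the first, the third against the second and the third against the first they numbered 3617, 6514 and 7700. With the minimum of 1.5-fold they were 869, 1964 and 2757, and with array weights 4734, 8213 and 9148. The calls within strains were not counted over all probe sets for the alternatives. Averaged over strains, Rhcg from the first to the second and to the third block was called under every alternative without a minimum fold. So was the brighter Slc4a1 probe set from the first to the second block and from the second to the third. The same held for the dimmer Car2 probe set from the first and from the second to the third block. It also held for the dimmer Atp6v1g3 probe set from the first to the third.

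Over all probe sets the strain calls numbered 110, and 23 with strain alone, 38 with a minimum of 1.5-fold and 302 with array weights. The additive fit gives no values within strains and strain alone gives the strain difference alone.

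The sign changed for values that passed no test in the fit of all rats. For the strain difference, array weights gave -4.0e-04 for the brighter Atp6v1g3 probe set and 0.0031 for the dimmer Atp6v1g3 probe set, which was 0.0014 with median centring and 0.0062 without the 2 arrays. Slc26a4 was 0.016 with median centring and 8.4e-04 without the 2 arrays, and the brighter Car2 probe set -0.0092 with the covariate. In the second block against the first, Atp6v1b1 was 0.0999 with array weights and 0.052 with the covariate, and Foxi1 0.0065 without the 2 arrays. In the third against the second, the brighter Atp6v1g3 probe set was 0.026 with the covariate, the dimmer Slc4a1 probe set -0.012 without the 2 arrays and -0.19 with the covariate, and the brighter Car2 probe set -0.061 as deposited and -0.0055 with median centring. In the third against the first, the brighter Slc4a1 probe set was 0.022 as deposited and 0.094 with median centring, and the brighter Car2 probe set 0.012 with the covariate.

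Leaving out 1 rat gave strain differences of -0.0087 to 0.060 for the brighter Atp6v1g3 probe set, -0.089 to 0.028 for the dimmer Atp6v1g3 probe set, -0.043 to 0.019 for Slc26a4 and -0.013 to 0.037 for the brighter Car2 probe set. For the second block against the first it gave -0.15 to 0.13 for Atp6v1b1 and -0.14 to 0.017 for Foxi1, and from the second to the third -0.012 to 0.19 for the dimmer Slc4a1 probe set and -0.022 to 0.037 for the brighter Car2 probe set. For the third against the first it gave -0.20 to 0.076 for Atp6v1b1, -0.079 to 0.074 for the brighter Slc4a1 probe set and -0.017 to 0.080 for Slc26a4. Where an alternative changed a value, the cause was not tested. No paired analysis was possible because the labels number no replicates across strains. Dim probe sets such as Atp6v1b1 and the dimmer Slc4a1 probe set had the widest intervals.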
